A study of Mus musculus with 12 samples.

Results

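The intensities of 10 genes of the neuronal cytoskeleton, of neuronal adhesion and of the synapse were followed in a pair of mouse endocrine cell lines: Ctnnd2, Ctnna2, Synpr, Rit2, Mapt, Stmn2, Stmn3, Map1b, Gpc6 and Enc1. They were taken by name, as every probe set (a group of short probes that reads 1 transcript) that carries 1 of these symbols, which gave 21 of the 22175 probe sets tested and 10 of the 12255 genes. Ctnnd2, Ctnna2, Synpr and Rit2 were chosen by their large decreases in bTC3 cells treated with GW8510, so the responses of bTC3 cells to GW8510, and how they differ from those of aTC1 cells, are given for all 10 genes as a description, without a test. The lines are compared by a test only for the other 6 genes. All 10 were chosen with earlier results of these data known, so their p-values may not be independent of the choice. RNA was measured on Affymetrix Mouse Genome 430A arrays in 4 groups of 3 biological replicates: bTC3 cells with 3.3 uM GW8510, bTC3 cells with the vehicle DMSO at 0.1%, aTC1 cells with 3.3 uM GW8510 and aTC1 cells with 0.1% DMSO, all after 5 days. For 4 of the 6 GW8510 samples the source field carries a neighbouring compound number, whereas their titles and compound fields read GW8510, which was used. GW8510 is a small molecule that was used as a putative inhibitor of the cell cycle kinase CDK2, and it was added in DMSO, so all 4 groups carried the same share of DMSO. bTC3 and aTC1 are lines from mouse islet tumours driven by the SV40 large T antigen, the first insulin-producing and the second glucagon-producing, so both are dividing tumour cells and each is a single line.

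Endocrine cells of the islet share much of their secretory and cytoskeletal programme with neurons, although they do not form axons. Ctnnd2 (delta-catenin) binds classical cadherins and shapes dendritic spines, and Ctnna2 (alpha N-catenin) ties the cadherin-catenin complex to actin. Mapt (tau) and Map1b bind and stabilise microtubules, whereas the stathmins Stmn2 and Stmn3 bind free tubulin and favour disassembly. Synpr (synaptoporin) is a membrane protein of synaptic vesicles, Rit2 is a small GTPase of neurons related to Ras, Gpc6 is a glypican, a heparan sulphate proteoglycan held to the cell surface by a lipid anchor, and Enc1 is a kelch protein that binds actin in neurons.

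The deposited intensities are linear and run between 20 and 20000, so a value at either end is only a limit. Array medians lay between 173.7 and 182.0, except for bTC3 GW8510 replicate 3 at 199.9, and this array and aTC1 GW8510 replicate 1 had the lowest limma array weights (0.227 and 0.262). Where leaving out either array turned or clearly moved a value of the 10 genes, the value without it is also given. The glucagon gene Gcg was at 20000 on all aTC1 arrays of both treatments and the insulin gene Ins2 was at 20000 on all bTC3 arrays. bTC3 cells also carried Gcg, at 12041 ± 798 with GW8510 and 6420 ± 367 with DMSO (SD, n = 3 each). The delta cell gene Sst was at 20000 in bTC3 cells with GW8510 and averaged 17819 with DMSO, against 65.4 and 69.0 in aTC1 cells. Of the other alpha cell markers, Irx1 averaged 34.7 and 28.2 in bTC3 cells, against 1213 and 2084 in aTC1 cells. Irx2 averaged 293 and 275, against 1377 and 1881, while Ttr was at 20000 on all bTC3 arrays. Of 8 neuron markers 6 were measured, and the group means of Rbfox3, Slc17a6, Neurod6, Gad1 and Gad2 lay between 20 and 87.3. The remaining neuron marker, Th, averaged 1103 ± 73.8 in bTC3 cells with GW8510 and 1318 ± 89.9 with DMSO, and 258 ± 21.4 in aTC1 cells with GW8510 and 392 ± 7.73 with DMSO (SD, n = 3 each). The summed neuron markers were 1193 to 1406 in bTC3 cells with GW8510 and 1417 to 1604 with DMSO, and 444 to 455 in aTC1 cells with GW8510 and 569 to 592 with DMSO. The 7 measured glia markers summed to 488 to 544 in bTC3 cells with GW8510 and 610 to 631 with DMSO, and to 559 to 663 in aTC1 cells with GW8510 and 796 to 846 with DMSO. The 6 macrophage markers summed to 1765 to 2014 in bTC3 cells with GW8510 and 2851 to 3131 with DMSO, and to 315 to 433 in aTC1 cells with GW8510 and 529 to 574 with DMSO, most of it C1qa in bTC3 cells, while Ptprc averaged 20 to 21.2. The 5 fibroblast markers summed to 489 to 617 in bTC3 cells with GW8510 and 347 to 413 with DMSO. The part of these markers in the results was not tested. In RNA of a whole culture, fewer cells that express a gene and less RNA per cell cannot be told apart. Each p-value weighs a difference against the spread between replicate cultures, estimated over all groups together.

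Read from the brightest probe set of each gene, 7 of the 10 genes passed the test in aTC1 cells, 2 higher and 5 lower with GW8510. In the same test 38.4% of all probe sets and 40.7% of all genes passed, the genes 19.8% higher and 20.9% lower. The 5 that fell were Ctnnd2, Ctnna2, Rit2, Mapt and Gpc6, and the 2 that rose were Enc1 and Stmn3, while Synpr, Stmn2 and Map1b did not pass. Over all 21 probe sets 5 rose, 9 fell and 7 did not pass, against a background of 18.3% higher and 20.2% lower. Ctnnd2, Ctnna2 and Rit2 were chosen by their falls in bTC3 cells, and all 10 genes with earlier results known. Nothing is therefore read from these aTC1 counts. In bTC3 cells, the 3 GW8510 arrays lay entirely below the 3 DMSO arrays for 8 of the 10 genes and entirely above them for Stmn3, and the arrays of Stmn2 overlapped. Among all genes, 17.6% lay entirely below and 28.4% entirely above in bTC3 cells, but the choice of members used this comparison and nothing is read from the count.

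**Figure D1:**
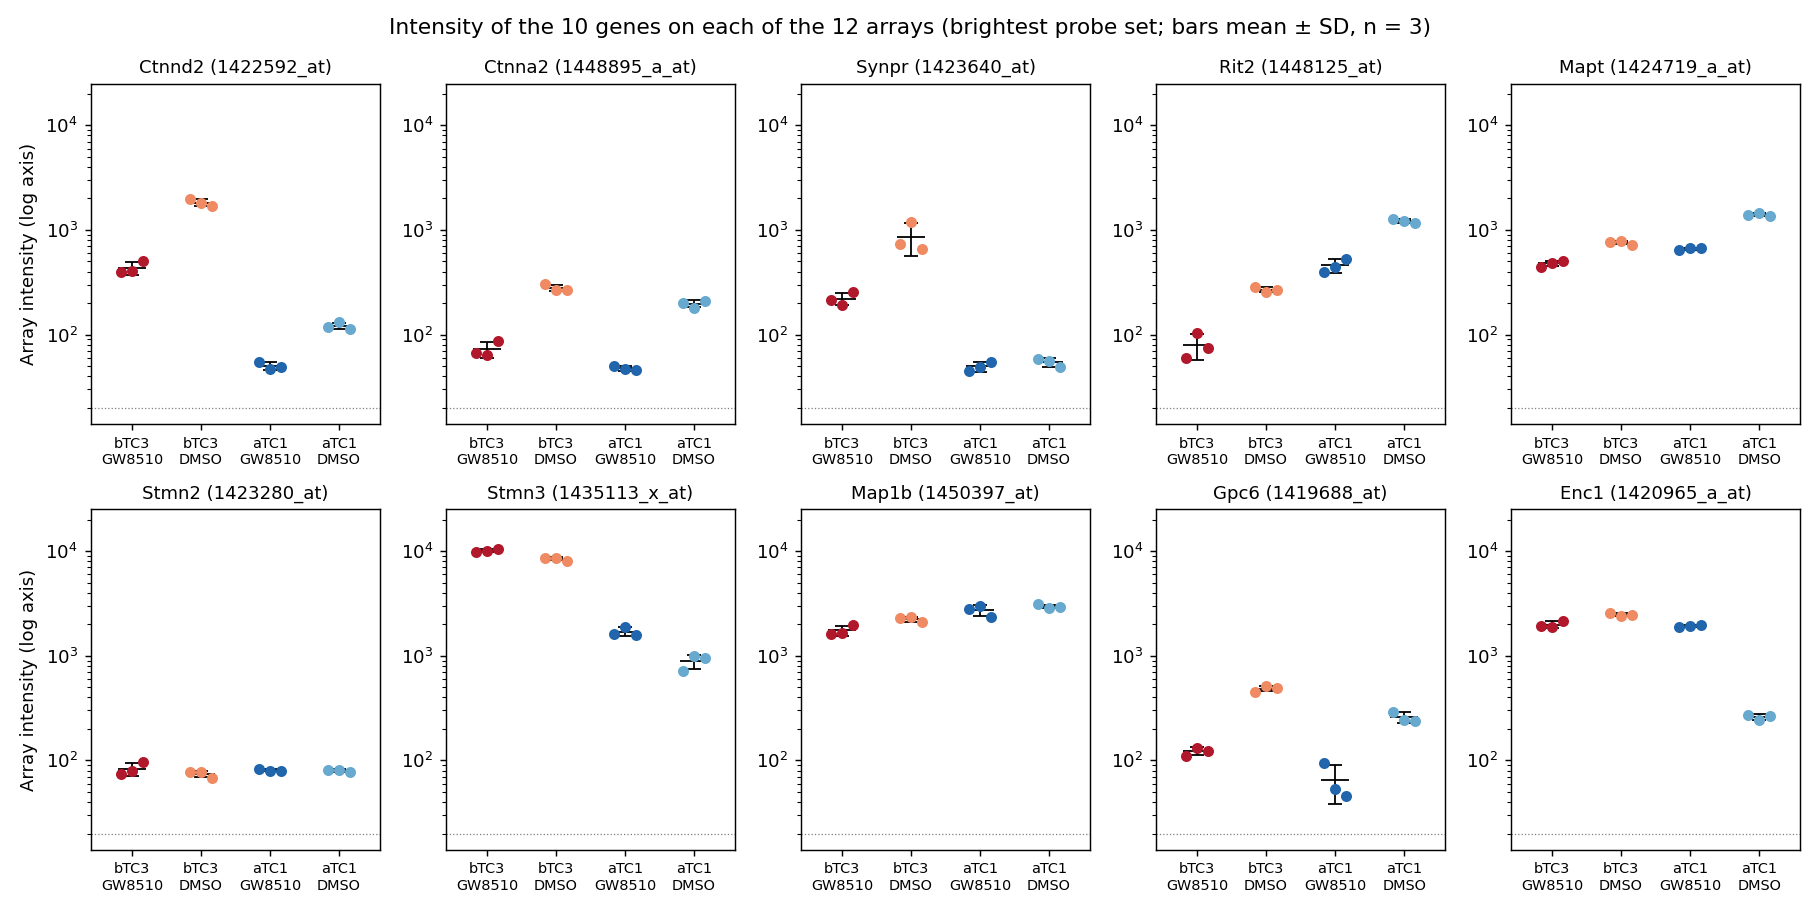
Intensity of the 10 genes on every array (log axis; points are arrays, bars are the mean ± SD, n = 3, the dotted line is the lower limit of 20), with the brightest probe set named above each panel. Enc1 stands at 1870 to 2544 in 3 of the groups and at 243 to 274 in aTC1 cells with DMSO, whereas Ctnnd2 and Synpr stand high in bTC3 cells with DMSO.

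Ctnnd2 (chr15:30172534-31029344 in the mouse build GRCm38.p6) had intensities of 399, 402 and 509 in bTC3 cells with GW8510, against 1977, 1791 and 1702 with DMSO. All treated arrays were far below the controls, and the log2 fold change of -2.07 ± 0.10 (SE) was rank 1 of the 22175 probe sets counted from the largest fall. In aTC1 cells the same probe set gave 55.1, 46.8 and 49.1 with GW8510, against 119, 131 and 114 with DMSO. These groups did not overlap either, and the log2 fold change was -1.27 ± 0.10 (SE, limma adjusted p = 1.54e-06). Without bTC3 GW8510 replicate 3, the array with the highest treated value, the bTC3 log2 fold change was -2.18. The order of the groups was bTC3 with DMSO, bTC3 with GW8510, aTC1 with DMSO and aTC1 with GW8510, and no neighbours in it overlapped. Ctnnd2 was 15.0-fold higher in bTC3 than in aTC1 cells with DMSO and 8.64-fold higher with GW8510, so every treated bTC3 culture still exceeded every aTC1 culture. The treated aTC1 arrays were dim, at 46.8 to 55.1, and whether this limits the aTC1 fall and the second ratio was not tested.

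The genes whose log2 intensities followed Ctnnd2 most closely over the 12 arrays were Slc44a1, Ssr4, Rcan2, Dach2 and Ube2e2, each with a Pearson correlation of 0.994 or 0.995. Among the 10 genes themselves, Ctnnd2 was closest to Synpr (0.971) and Ctnna2 to Gpc6 (0.962), and Rit2 and Stmn3 ran most oppositely (-0.90). The 12 arrays form 4 groups, so such a correlation mostly compares 4 group means and is given as a description. Dach2, for example, averaged 1033 in bTC3 cells with GW8510 and 1962 with DMSO, and 370 in aTC1 cells with GW8510 and 632 with DMSO.

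Ctnna2 (chr6:76881637-77979815), the partner that links cadherins to actin, differed little between the lines and was low after treatment in both. It had 66.6, 63.2 and 86.7 in bTC3 cells with GW8510, against 302, 269 and 269 with DMSO, and the log2 fold change was -1.97 ± 0.11 (SE). It had 50.7, 46.5 and 46.1 in aTC1 cells with GW8510, against 202, 181 and 211 with DMSO. The treated arrays lay entirely below the controls in both lines, and in aTC1 cells the fall was 4.14-fold (log2 fold change -2.05 ± 0.11, limma adjusted p = 5e-08). The responses of the lines were close, with a difference of 0.08 ± 0.16 (SE) on the log2 scale, bTC3 minus aTC1, or -0.06 without bTC3 GW8510 replicate 3. Treated arrays were dim in both lines, at 46.1 to 86.7, and whether this limits the size of the falls was not tested. Ctnna2 was rank 48 from the largest fall in aTC1 cells and rank 5 in bTC3 cells.

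Synpr (chr14:13284780-13615469), the synaptic vesicle protein, had 214, 194 and 254 in bTC3 cells with GW8510, against 730, 1198 and 655 with DMSO. The controls were spread widely because of replicate 2, but all of them lay above the treated arrays, and the log2 fold change was -1.92 ± 0.19 (SE). In aTC1 cells Synpr was dim on every array, with 44.9, 48.7 and 55.3 with GW8510, against 58.3, 56.4 and 49.0 with DMSO. Those groups overlapped, and the log2 fold change of -0.14 ± 0.19 (SE) did not pass (limma adjusted p = 0.631). The bTC3 response was thus 1.78 ± 0.27 (SE) more negative than the aTC1 response on the log2 scale, a difference that the choice of the gene bears on and that was not tested. Synpr was 15.3-fold higher in bTC3 than in aTC1 cells with DMSO and 4.43-fold higher with GW8510.

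Rit2, the neuronal GTPase, ran the other way between the lines, and its 3 probe sets did not all report it. Probe set 1448125_at gave 59.8, 104 and 75.1 in bTC3 cells with GW8510, against 286, 257 and 265 with DMSO, a log2 fold change of -1.80 ± 0.16 (SE). In aTC1 cells it gave 399, 446 and 529 with GW8510, against 1283, 1225 and 1168 with DMSO. No array of either treated group reached a control of its line, and the aTC1 log2 fold change was -1.43 ± 0.16 (SE, limma adjusted p = 2.5e-05). Probe set 1460166_at fell to the same extent in aTC1 cells (log2 fold change -1.44 ± 0.09, limma adjusted p = 1.79e-07) but was lower by less in bTC3 cells, at 43.4, 38.6 and 46.6 with GW8510, against 80.7, 87.4 and 81.9 with DMSO (log2 fold change -0.96 ± 0.09, SE). The third, 1421779_at, was at the limit of 20 on all 6 bTC3 arrays and at 20 to 22.2 on the aTC1 arrays, so it carries no information on a change. With DMSO, 1448125_at was 4.55-fold lower in bTC3 than in aTC1 cells and 1460166_at was 3.27-fold lower.

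**Figure D2:**
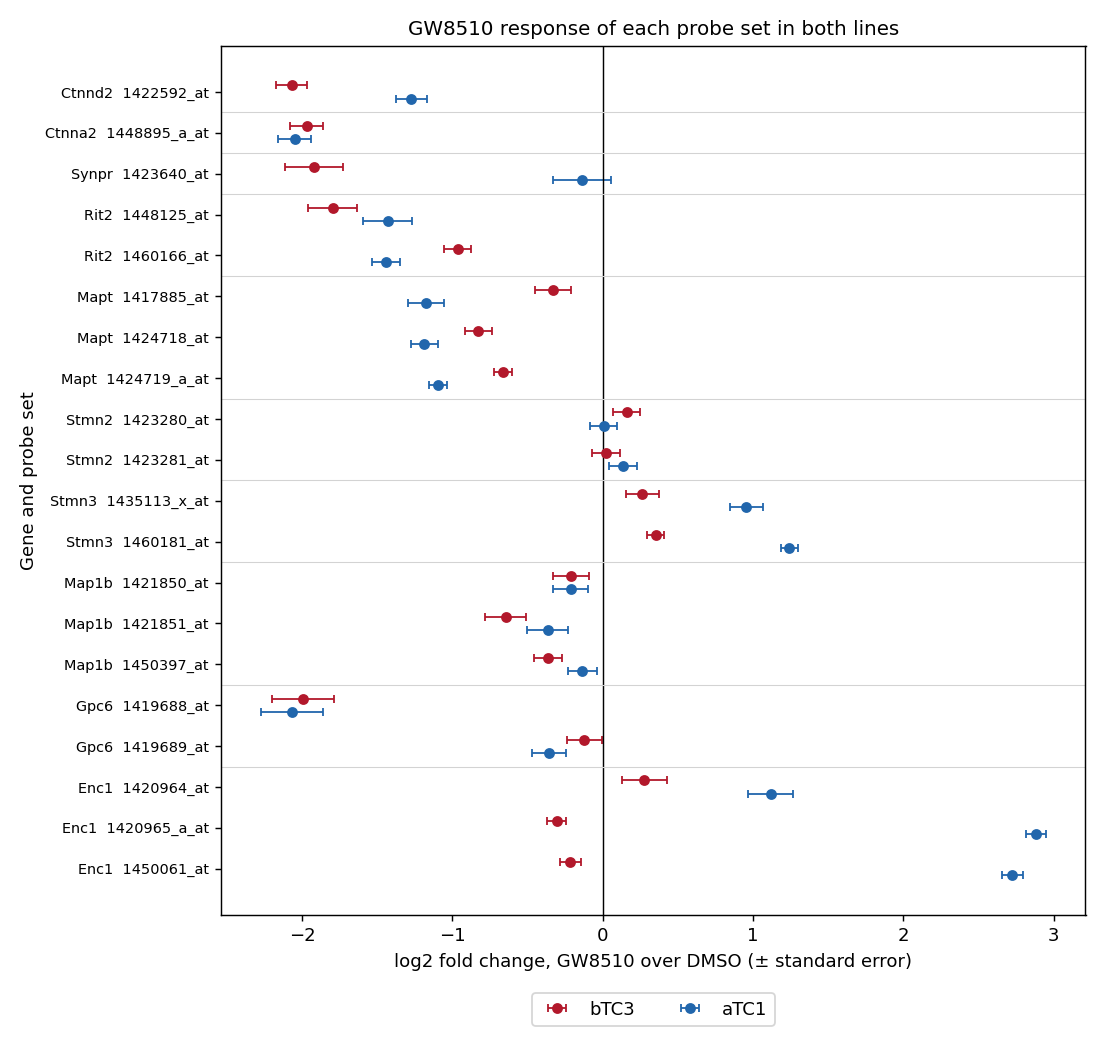
Log2 fold change of GW8510 over DMSO with its standard error for 20 of the 21 probe sets, bTC3 cells above aTC1 cells in each row. The Rit2 probe set at the lower limit is left out. Ctnna2 and Gpc6 1419688_at have nearly the same value in both lines, whereas Enc1 1420965_a_at lies at -0.31 in bTC3 and at 2.88 in aTC1.

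Start-site sequences of RefSeq (GRCm38.p6) matched 5 of the 10 genes. They are shown for the catenins and Synpr, which were low after treatment in bTC3 cells, and for Stmn3 and Map1b, which were not among the largest decreases, each as the 150 bases before the start site, 5' to 3' on the strand of the gene. Capitals mark the GC box GGGCGG on either strand, and so also CCGCCC when it is read from the other strand. They also mark the CCAAT box, spelled as its name, and the TATA box in the form TATAAA. Every motif named here was sought on both strands, in these windows and in all others. The searched window was 250 bases.
Ctnnd2, chr15:30172384-30172533, plus strand: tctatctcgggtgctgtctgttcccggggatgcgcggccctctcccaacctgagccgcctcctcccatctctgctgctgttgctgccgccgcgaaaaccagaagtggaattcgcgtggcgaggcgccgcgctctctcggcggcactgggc
Ctnna2, chr6:77979668-77979817, minus strand: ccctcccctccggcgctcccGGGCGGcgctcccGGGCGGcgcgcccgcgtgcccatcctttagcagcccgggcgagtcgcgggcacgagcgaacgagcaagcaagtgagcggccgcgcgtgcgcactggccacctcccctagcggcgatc
Synpr, chr14:13284630-13284779, plus strand: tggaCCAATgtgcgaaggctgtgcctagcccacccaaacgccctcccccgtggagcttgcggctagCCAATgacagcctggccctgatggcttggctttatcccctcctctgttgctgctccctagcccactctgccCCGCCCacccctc
Stmn3, chr2:181314501-181314650, minus strand: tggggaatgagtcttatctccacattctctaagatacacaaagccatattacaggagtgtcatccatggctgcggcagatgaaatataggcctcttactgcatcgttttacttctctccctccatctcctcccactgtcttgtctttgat
Map1b, chr13:99516603-99516752, minus strand: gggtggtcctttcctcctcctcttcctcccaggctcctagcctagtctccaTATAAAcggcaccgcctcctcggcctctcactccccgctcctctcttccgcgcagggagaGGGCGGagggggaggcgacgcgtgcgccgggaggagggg
The Ctnna2 window held 3 GC boxes, 2 of them in the printed part, and the Synpr and Map1b windows held 1 each. Synpr also had 2 CCAAT boxes and Map1b a TATA box, whereas the Ctnnd2 and Stmn3 windows held none of the 3 motifs. Of all 32851 windows of the same length, 32.7% held a GC box, 33.8% a CCAAT box and 12.4% a TATA box. The E-box CACGTG was in 6.02% of all windows and in none of these genes. The cAMP response element TGACGTCA was in 1.55% of all windows and its half-site, the first part of it up to the G, in 17.8%, and neither was found in these genes. GC content was 73.2% for Ctnna2, 66.4% for Map1b, 64.0% for Synpr, 62.8% for Ctnnd2 and 48.8% for Stmn3, against a median of 52.4% over all windows. RefSeq lists a second Synpr start inside the gene, whose window held none of these motifs, and the outer limit of the Ctnna2 gene lies within the stretch printed for it. A match of letters is no evidence of binding, and the arrays do not say which start site was used.

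Mapt (chr11:104229409-104332090), which encodes tau, was read by 3 probe sets that agreed in aTC1 cells. Its brightest, 1424719_a_at, gave 448, 482 and 508 in bTC3 cells with GW8510, against 763, 782 and 726 with DMSO. In aTC1 cells it gave 639, 670 and 670 with GW8510, against 1391, 1454 and 1373 with DMSO. Treated arrays were below the controls in each line, and the aTC1 fall was 2.13-fold (log2 fold change -1.09 ± 0.06, limma adjusted p = 5.22e-08), against -0.66 ± 0.06 on the log2 scale in bTC3 cells. The other probe sets fell by 1.17 and 1.19 on the log2 scale in aTC1 cells (limma adjusted p = 1.04e-05 and 7.33e-07). In bTC3 cells they read -0.33 ± 0.12 for 1417885_at and -0.83 ± 0.09 for 1424718_at (SE). For 1417885_at the bTC3 groups overlapped, at 125, 123 and 179 with GW8510, against 169, 176 and 183 with DMSO, and without bTC3 GW8510 replicate 3 its log2 fold change was -0.51.

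Map1b (chr13:99421464-99516602), the other microtubule-binding protein, did not pass the test in aTC1 cells with any of its 3 probe sets. The brightest, 1450397_at, gave 1623, 1651 and 1962 in bTC3 cells with GW8510, against 2304, 2324 and 2093 with DMSO (log2 fold change -0.36 ± 0.10, SE). In aTC1 cells it gave 2792, 2979 and 2367 with GW8510, against 3090, 2870 and 2935 with DMSO, and these overlapped (log2 fold change -0.13 ± 0.10, limma adjusted p = 0.314). Probe set 1421851_at read -0.65 ± 0.14 in bTC3 cells and -0.37 ± 0.14 in aTC1 cells on the log2 scale (SE), the second with a limma adjusted p of 0.0559. Its aTC1 arrays did not overlap, at 649, 613 and 495 with GW8510, against 798, 792 and 666 with DMSO, and under 10 of the alternative settings it passed, with adjusted p of 0.0108 to 0.0483. The dimmest, 1421850_at, read -0.21 in both lines (aTC1 limma adjusted p = 0.19).

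Stmn3 (chr2:181306459-181314500), a stathmin that sequesters tubulin, was higher with GW8510 in both lines, and both of its probe sets agreed in direction. Probe set 1460181_at gave 4992, 4922 and 5178 in bTC3 cells with GW8510, against 3949, 3911 and 3964 with DMSO (log2 fold change 0.35 ± 0.05, SE). In aTC1 cells it gave 797, 785 and 791 with GW8510, against 312, 353 and 340 with DMSO. The aTC1 rise was 2.37-fold (log2 fold change 1.24 ± 0.05, limma adjusted p = 9.91e-09). The other probe set, 1435113_x_at, whose suffix marks probes that can match other transcripts too, rose 1.94-fold in aTC1 cells (limma adjusted p = 2.43e-05) and read 0.26 ± 0.11 (SE) on the log2 scale in bTC3 cells. Stmn2 (chr3:8509527-8561604), the other stathmin, was dim throughout. Probe set 1423280_at gave 73.6, 78.8 and 96.6 in bTC3 cells with GW8510, against 76.9, 76.8 and 68.0 with DMSO, and 82.2, 79.9 and 79.0 in aTC1 cells with GW8510, against 81.1, 81.1 and 77.8 with DMSO. These values overlapped in both lines (aTC1 limma adjusted p = 0.971), as did those of 1423281_at at 21.7 to 28.4 over all 12 arrays (aTC1 limma adjusted p = 0.31).

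Enc1 (chr13:97241105-97253040), the actin-binding kelch protein, had the largest rise of the 10 genes in aTC1 cells, whereas its brighter probe sets read slightly lower with GW8510 in bTC3 cells. Its brightest probe set, 1420965_a_at, gave 1939, 1870 and 2148 in bTC3 cells with GW8510, against 2544, 2384 and 2430 with DMSO. In aTC1 cells it gave 1886, 1912 and 1963 with GW8510, against 274, 243 and 264 with DMSO. Treated aTC1 cultures thus lay among the treated bTC3 cultures, while untreated aTC1 cultures were far below all others. The aTC1 rise was 7.39-fold (log2 fold change 2.88 ± 0.07, limma adjusted p = 9.29e-11) and was rank 35 from the largest rise, whereas the bTC3 log2 fold change was -0.31 ± 0.07 (SE). Probe set 1450061_at rose 6.61-fold in aTC1 cells (limma adjusted p = 1.97e-10) and read -0.21 ± 0.07 (SE) on the log2 scale in bTC3 cells. The dimmer 1420964_at disagreed with both in bTC3 cells, at 71.7, 68.5 and 105 with GW8510, against 67.9, 68.1 and 62.6 with DMSO. Its log2 fold change there was 0.28 ± 0.15 (SE), or 0.08 without bTC3 GW8510 replicate 3, and in aTC1 cells it rose 2.17-fold (limma adjusted p = 7.97e-05).

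Gpc6 (chr14:116924920-117979529), the cell surface glypican, depended on the probe set. Probe set 1419688_at gave 111, 132 and 124 in bTC3 cells with GW8510, against 454, 511 and 492 with DMSO, a log2 fold change of -1.99 ± 0.21 (SE) that was rank 3 from the largest fall. In aTC1 cells it gave 93.9, 53.7 and 45.8 with GW8510, against 292, 244 and 239 with DMSO. Treated and control arrays did not overlap in either line, and the aTC1 fall was 4.20-fold (log2 fold change -2.07 ± 0.21, limma adjusted p = 7.99e-06), or -2.38 on the log2 scale without aTC1 GW8510 replicate 1. Probe set 1419689_at gave 128, 104 and 116 in bTC3 cells with GW8510, against 123, 123 and 130 with DMSO, which overlapped. Its aTC1 fall was small (log2 fold change -0.36 ± 0.12, limma adjusted p = 0.0287) and did not pass without aTC1 DMSO replicate 1 (adjusted p = 0.119), without aTC1 GW8510 replicate 2 (0.109) or in a fit of the aTC1 arrays alone (0.0912).

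The lines were also compared with each other at the same treatment, which uses the same arrays as the responses above. With DMSO, all 10 genes had bTC3 and aTC1 arrays that did not overlap, 6 above and 4 below, where 30.2% and 35.5% of all genes did so. With GW8510 the counts were 5 above, 3 below and 2 overlapping, against 31.1% and 28.1% of all genes. Both counts include Ctnnd2, Ctnna2, Synpr and Rit2, which were chosen on the bTC3 arrays, so nothing is read from them. Stmn2 counted as below with DMSO by a narrow gap, and its difference did not pass (limma adjusted p = 0.313). Enc1 1420965_a_at was 9.43-fold higher in bTC3 than in aTC1 cells with DMSO (limma adjusted p = 3.19e-12) and 1.03-fold higher with GW8510 (limma adjusted p = 0.596), so a difference between the lines was not detectable after treatment. Without bTC3 GW8510 replicate 3 that log2 difference was -0.01, against 0.05 with it. Its neighbour 1450061_at remained apart, at 12.1-fold with DMSO (limma adjusted p = 2.6e-12) and 1.58-fold with GW8510 (limma adjusted p = 5.31e-06). The dim 1420964_at read 0.60 ± 0.15 on the log2 scale with DMSO (SE, limma adjusted p = 0.00429) and -0.24 ± 0.15 with GW8510 (0.202), which passed without bTC3 GW8510 replicate 3 (0.0059). Stmn3 1460181_at was 11.8-fold higher in bTC3 cells with DMSO and 6.36-fold higher with GW8510 (limma adjusted p = 2.7e-13 and 2.97e-12). The brighter Stmn3 1435113_x_at was 9.62-fold and 5.95-fold higher (limma adjusted p = 1.99e-10 and 1.4e-09).

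Tau and Map1b were lower in bTC3 cells. Mapt 1424719_a_at was 1.86-fold lower in bTC3 than in aTC1 cells with DMSO (limma adjusted p = 7.7e-08) and 1.38-fold lower with GW8510 (2.53e-05). Mapt 1424718_at was 2.18-fold lower with DMSO and 1.70-fold lower with GW8510 (limma adjusted p = 3.68e-07 and 1.1e-05). With DMSO, Mapt 1417885_at was 2.18-fold lower too (limma adjusted p = 6.14e-06). For Mapt 1417885_at the log2 difference with GW8510 of -0.28 ± 0.12 (SE) did not pass (limma adjusted p = 0.072) but passed without bTC3 GW8510 replicate 3 (0.000143). The size for Map1b depended on the probe set. Its brightest, 1450397_at, was 1.32-fold lower with DMSO and 1.55-fold lower with GW8510 (limma adjusted p = 0.0031 and 9.79e-05). Map1b 1421851_at was 2.92-fold lower with DMSO and 3.55-fold lower with GW8510 (limma adjusted p = 1.07e-06 and 2.19e-07). The dimmest, 1421850_at, was 1.95-fold lower with both (limma adjusted p = 1.84e-05 and 1.75e-05). Gpc6 1419688_at was 1.88-fold higher in bTC3 cells with DMSO and 1.99-fold higher with GW8510 (limma adjusted p = 0.00235 and 0.00125), while 1419689_at did not differ detectably (0.391 and 0.483). Without aTC1 GW8510 replicate 1 the log2 difference of 1419688_at with GW8510 was 1.30, against 0.99 with it. Neither Stmn2 probe set passed in either comparison (limma adjusted p of 0.313 to 0.767).

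**Figure D3:**
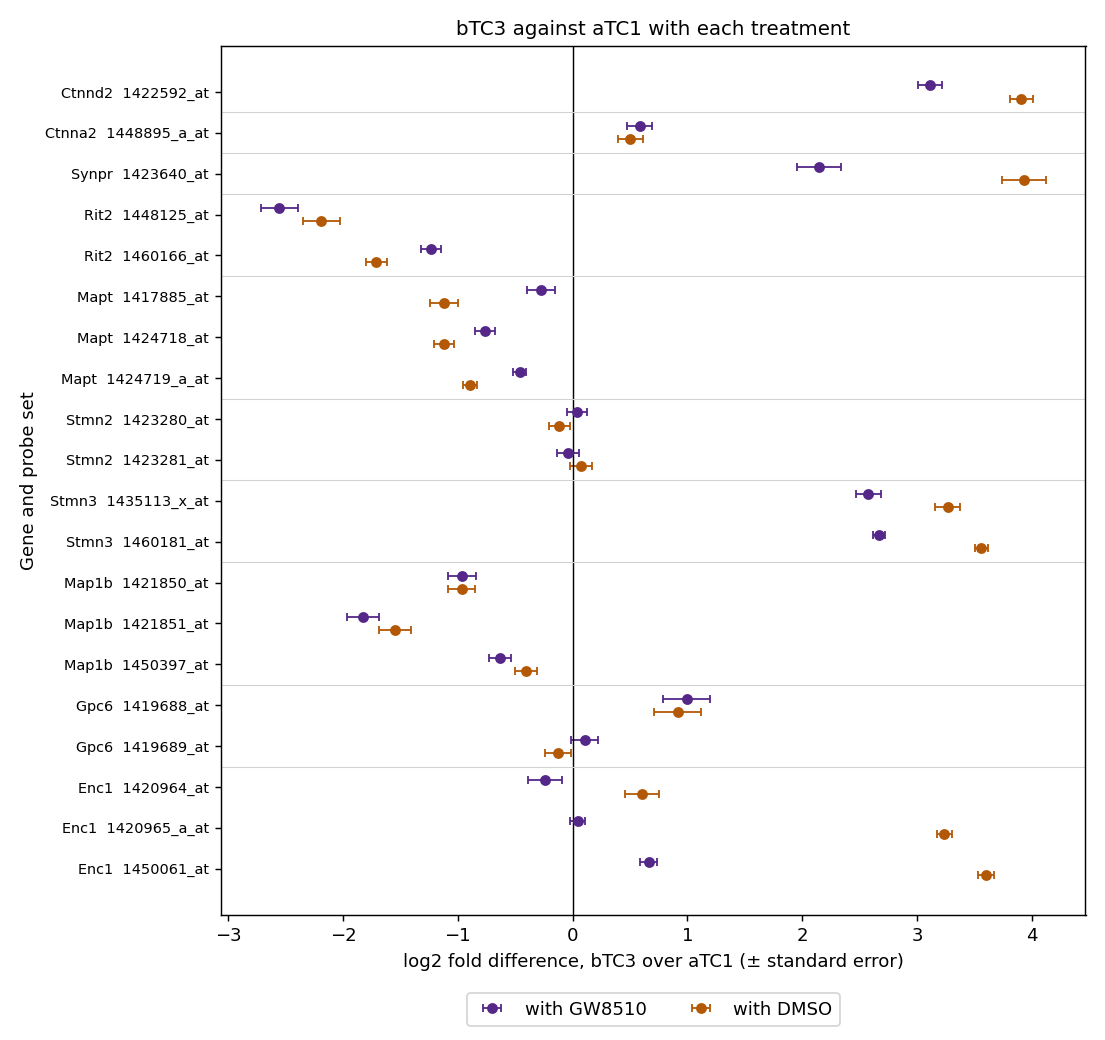
Log2 difference of bTC3 over aTC1 cells with its standard error for 20 of the 21 probe sets, with GW8510 above DMSO in each row. Enc1 1420965_a_at moves to 0.05 with GW8510, against 3.24 with DMSO, and Ctnnd2 stays above 3 with both.

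Genes related to the 10 were read from lists written from general knowledge, each gene by its brightest probe set, and tested in both lines. Over all genes, 19.2% were higher and 14.1% lower in bTC3 cells with GW8510, and 19.8% and 20.9% in aTC1 cells. The counts of each list, here and in the paragraphs that follow, stand against these shares. The excess of higher calls in bTC3 cells depended on 1 array and on the scaling. Of the probe sets that passed in bTC3 cells 57.3% were higher, against 48.6% without bTC3 GW8510 replicate 3 and 49.0% after a further quantile normalization. Of 17 tubulins and intermediate filaments, 10 were higher and 0 lower in bTC3 cells, and 11 higher and 2 lower in aTC1 cells. Their median log2 fold change was 0.34 in bTC3 and 0.33 in aTC1 cells, against 0.07 and 0.03 over all genes, and these counts were the same without the 2 arrays of lowest weight. Tubb2b, a beta-tubulin of developing neurons, averaged 73.5 ± 10.7 in bTC3 cells with GW8510 and 27.1 ± 0.279 with DMSO, and 251 ± 34.0 in aTC1 cells with GW8510 and 59.1 ± 7.01 with DMSO (SD, n = 3 each). It rose by 1.43 and 2.09 on the log2 scale (limma adjusted p = 4.85e-06 and 7.94e-08). Nefl, the light neurofilament chain, rose by 0.57 in bTC3 cells (limma adjusted p = 2.33e-05) and fell by 0.50 in aTC1 cells (3.09e-05), and its responses differed between the lines by 1.07 on the log2 scale (3.01e-06), in a test that 25.3% of all probe sets passed.

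Among 33 other microtubule-binding, stathmin and growth cone genes, 7 were higher and 11 lower in bTC3 cells and 9 higher and 12 lower in aTC1 cells. Stmn4, a further stathmin, rose by 0.92 on the log2 scale in bTC3 cells (limma adjusted p = 1.5e-05) and fell by 0.43 in aTC1 cells (0.00229). Kif1a, the motor that carries synaptic vesicle precursors, rose by 0.65 in bTC3 and 0.57 in aTC1 cells (limma adjusted p = 8.23e-06 and 1.03e-05), while its second probe set read 0.07 and 0.11. Dclk1, a doublecortin-like microtubule-binding kinase, fell by 0.91 and 0.65 (limma adjusted p = 6.28e-06 and 4.08e-05), but its 5 other probe sets read -0.37 to 0.06 in bTC3 and -0.47 to 0.15 in aTC1 cells. Of 26 kinases and phosphatases that act on tau or Map1b, 4 were higher and 8 lower in each line. Mapk10 (JNK3) fell by 0.87 in bTC3 and 1.32 in aTC1 cells (limma adjusted p = 5.72e-06 and 7.12e-08). Cdk5r1, the p35 activator of Cdk5, rose by 1.06 in aTC1 cells (limma adjusted p = 1.48e-07) and read 0.15 in bTC3 cells (0.0972). Mark4, a microtubule affinity-regulating kinase, rose by 0.37 in bTC3 and 0.78 in aTC1 cells (limma adjusted p = 0.0059 and 1.53e-05), and its other probe sets read 0.07 to 0.29 in bTC3 and 0.41 to 0.47 in aTC1 cells. Without the 2 arrays of lowest weight 3 of these 26 were higher and 10 lower in bTC3 cells, and 7 were higher and 7 lower in aTC1 cells.

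Of 34 synaptic vesicle, synaptic adhesion and scaffold genes, 4 were higher and 15 lower in bTC3 cells, and 4 higher and 11 lower in aTC1 cells. The shares over all genes were 19.2% higher and 14.1% lower in bTC3 cells, and 19.8% and 20.9% in aTC1 cells. Median log2 fold changes of the list were -0.16 and -0.13, against 0.07 and 0.03 over all genes. Pclo (piccolo), a scaffold of the presynaptic active zone, averaged 155 ± 10.4 in bTC3 cells with GW8510 and 489 ± 65.9 with DMSO, and 101 ± 20.8 in aTC1 cells with GW8510 and 218 ± 28.3 with DMSO (SD, n = 3 each). Its decreases were -1.65 and -1.13 on the log2 scale (limma adjusted p = 7.83e-06 and 6.89e-05), while its second probe set was at the limit of 20 in treated bTC3 cells and in all aTC1 cells and gives no size of change. Gphn (gephyrin), which anchors inhibitory receptors, fell by 1.11 in bTC3 and 1.45 in aTC1 cells (limma adjusted p = 4.33e-06 and 1.79e-07). Nrcam, a neuronal adhesion molecule, rose by 0.95 in bTC3 cells (limma adjusted p = 1.91e-05), and Dlgap4, a postsynaptic scaffold protein, rose by 0.44 and 1.12 (0.000627 and 2.21e-07).

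Of 22 other genes of cadherin-catenin adhesion, nectins included, 2 were higher and 5 lower in bTC3 cells and 3 higher and 4 lower in aTC1 cells. Without the 2 arrays of lowest weight, 5 were higher and 5 lower in aTC1 cells. The shares over all genes, with all arrays, were 19.2% higher and 14.1% lower in bTC3 cells, and 19.8% and 20.9% in aTC1 cells. Cdh8 averaged 88.9 ± 6.46 in bTC3 cells with GW8510 and 286 ± 30.8 with DMSO (SD, n = 3 each), a fall of 1.68 on the log2 scale (limma adjusted p = 2.73e-06), and was dim in aTC1 cells. Cdh4 fell by 1.13 in bTC3 and 1.08 in aTC1 cells (limma adjusted p = 2.6e-05 and 1.82e-05), with -0.52 and 0.03 from its second probe set. Nectin2 rose by 0.58 in bTC3 cells (limma adjusted p = 0.000462) and fell by 1.04 in aTC1 cells (2.55e-06). Ctnnal1, related to the alpha-catenins, rose by 0.67 in aTC1 cells (limma adjusted p = 0.00115).

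Relatives of Rit2, Gpc6 and Enc1 moved in both directions. Of 18 Rit, RGK and Ras-related GTPases, 4 were higher and 3 lower in bTC3 cells (6 and 3 without the 2 arrays of lowest weight), and 6 higher and 4 lower in aTC1 cells. Rras rose by 1.10 in bTC3 cells and 0.40 in aTC1 cells (limma adjusted p = 7.01e-06 and 0.00563), Rap2a rose by 1.08 in aTC1 cells (1.4e-06), Rasd2 fell by 0.54 there (0.000117), and Mras fell by 0.36 in bTC3 cells (0.0152). The second probe set of Rap2a read 0.15 and that of Rasd2 -0.19 in aTC1 cells. Of 7 other glypicans and syndecans, 2 were higher and 0 lower in bTC3 cells and 4 higher and 1 lower in aTC1 cells. Sdc4, a syndecan of cell-matrix contacts, averaged 2248 ± 258 in aTC1 cells with GW8510 and 781 ± 39.8 with DMSO (SD, n = 3 each; limma adjusted p = 0.000326). Sdc2 rose by 0.38 in bTC3 cells (limma adjusted p = 0.0044) and fell by 0.62 in aTC1 cells (8e-05). Of 12 kelch relatives of Enc1, 1 was higher and 4 lower in bTC3 cells and 3 higher and 5 lower in aTC1 cells. Klhl22 rose by 0.89 in aTC1 cells (limma adjusted p = 1.56e-07), Klhl13 rose by 0.34 in bTC3 and 0.35 in aTC1 cells (0.00302 and 0.00158), with -0.05 and 0.19 from its second probe set, and Klhl24 fell by 0.84 in bTC3 and 1.49 in aTC1 cells (0.000843 and 6.14e-06).

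REST represses many neuronal genes outside neurons, so its own gene and those of its corepressors were read as well. Of 13 measured, 1 was higher and 1 lower in bTC3 cells and 0 higher and 5 lower in aTC1 cells, by limma at an adjusted p under 0.05. Rest itself read 0.21 in bTC3 cells and 0.04 in aTC1 cells on the log2 scale (limma adjusted p = 0.323 and 0.888). Ctdsp2, a phosphatase recruited by REST, fell by 0.76 in aTC1 cells (limma adjusted p = 8.22e-07). Kdm1a, a histone demethylase of the same complex, fell by 0.26 in bTC3 and 0.17 in aTC1 cells (limma adjusted p = 0.00251 and 0.0222), the second not passing without aTC1 DMSO replicate 2 (0.0729), aTC1 DMSO replicate 3 (0.0598) or aTC1 GW8510 replicate 2 (0.0576). The rise of Ehmt2 in bTC3 cells (log2 fold change 0.18, limma adjusted p = 0.0446) did not pass in most other settings and reached an adjusted p of 0.174 without bTC3 DMSO replicate 2.

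**Figure D4:**
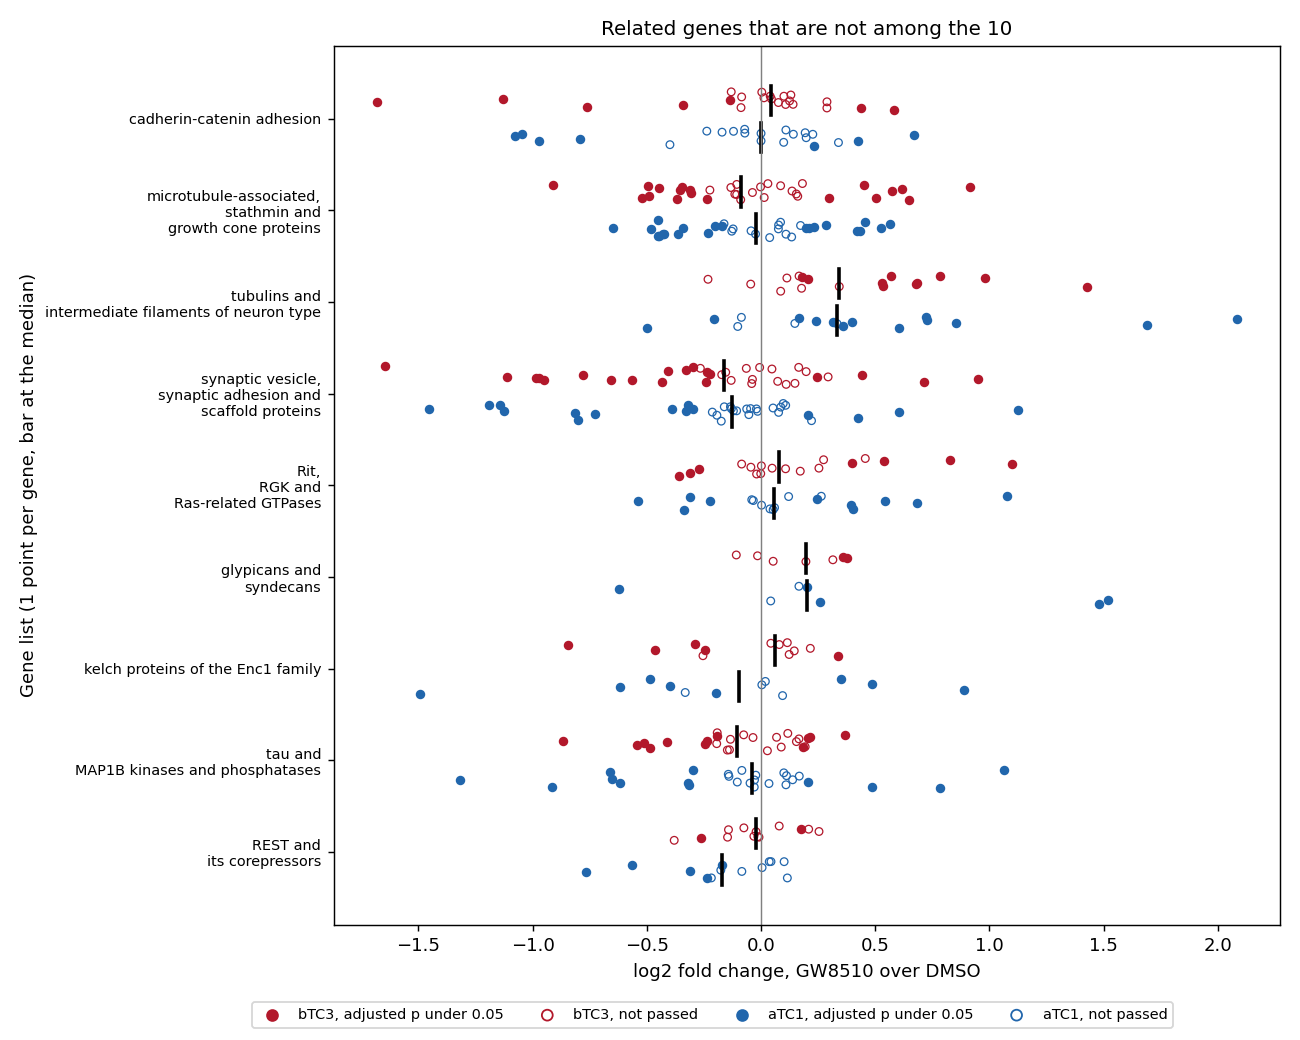
Log2 fold change of GW8510 over DMSO for each measured gene of the 9 lists, bTC3 cells above aTC1 cells, filled where the limma adjusted p was under 0.05, with a bar at the median of each list. Tubulins and intermediate filaments lie mostly to the right of 0 in both lines, with medians of 0.34 and 0.33, and synaptic genes mostly to the left.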

How the data were processed

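The authors deposited linear array intensities for 12 arrays of 22690 probe sets each. Per the labels they used RMA, a method that subtracts background, brings the arrays to one scale and summarises each probe set, and its version is not given in the sources used here. The 64 control probe sets and 451 probe sets at a limit of the scale (20 or 20000) on all arrays were left out. The platform annotation assigned 20380 probe sets to 1 gene, 691 to several and 1555 to none here.

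Log2 intensities, with no pseudocount, were fitted with limma 3.58.1 in R 4.3.3 for the 4 groups together, with contrasts and empirical Bayes (3.30 prior and 8 residual degrees of freedom, median residual SD 0.112 on the log2 scale, median SE of a contrast 0.0873). The number of arrays limits this precision. Adjusted p-values are Benjamini-Hochberg over all 22175 probe sets, and those under 0.05 passed. Arrays with the same replicate number did not deviate together, so the design has no block. The fit was tested on simulated data. The 10 genes and the related lists were chosen with earlier results of these data known. All probe sets of the 10 genes are given, and from each list the largest rise and the largest fall in each line among genes that passed and whose GW8510 and DMSO arrays did not overlap, plus the 5 genes most correlated with Ctnnd2. Rest and the marker genes are named in addition. Alternatives were another normalization, 1 row per gene, a filter on dim probe sets, another prior, array weights, a pseudocount of 16, a fit of the compared arrays alone, blocking by replicate number, and omission of single arrays. Omission of the 2 arrays of lowest weight was added after the data were seen.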

Additional observations from a re-analysis of the deposited data

Results flagged for a closer look

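The brighter Enc1 probe sets moved in opposite directions in the lines: all GW8510 arrays lay below DMSO in bTC3 cells and above it in aTC1 cells. This held for 1420965_a_at (log2 difference of the responses, bTC3 minus aTC1, -3.19) and for 1450061_at (-2.94). These differences were not tested, because the bTC3 values bear on the choice of the genes. The bTC3 fall was small, at -0.31 on the log2 scale for 1420965_a_at and -0.36 without bTC3 GW8510 replicate 3. The smallest fall among the alternatives, -0.08, was the mean of all 3 Enc1 probe sets, which takes in the dimmer 1420964_at. The dimmer 1420964_at lay above DMSO in both lines, by 0.28 in bTC3 cells, or 0.08 without bTC3 GW8510 replicate 3. Among the related genes, 6 passed in both lines with opposite signs, 5 of them rising in bTC3 and falling in aTC1 cells and 1, Mapre3, the reverse. The limma difference of the responses was 1.63 for Nectin2 (adjusted p = 3.34e-06), 1.34 for Stmn4 (1.31e-05), 1.07 for Nefl (3.01e-06) 1.00 for Sdc2 (7.22e-05), 0.47 for Gap43 (0.00153) and -0.79 for Mapre3 (0.00113). Gap43, a growth cone protein, read 0.30 in bTC3 and -0.17 in aTC1 cells (limma adjusted p = 0.00229 and 0.0393), and Mapre3, a protein of microtubule ends, read -0.35 and 0.43 (0.0138 and 0.0031). Both were named after their values were seen. The same test passed for 25.3% of all probe sets. The second Nectin2 probe set read 0.14 in bTC3 and -1.66 in aTC1 cells on the log2 scale, and the other Sdc2 probe sets read 0.34 to 0.92 in bTC3 and -0.95 to -0.50 in aTC1 cells.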

How the results depend on the processing

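The 7 genes called in aTC1 cells numbered 7 under every alternative, each array left out included (7 to 7), with 2 higher and 5 lower each time. Over all probe sets, 6975 passed for GW8510 in bTC3 cells, 8520 in aTC1 cells, 12414 between the lines with GW8510, 12065 with DMSO and 5613 for the difference of the responses. With 1 probe set per gene, which tests 12255 rows, these counts were 4174, 5066, 7095, 6829 and 3488, and with the mean of the probe sets of a gene 4056, 4973, 7101, 6885 and 3438. With each array left out in turn they ranged over 5631 to 7644, 7419 to 9195, 11763 to 12370, 11099 to 12571 and 4698 to 5834. No value that passed the test changed sign, but several small ones did. For example, the difference of the responses ranged over -0.06 to 0.17 for Ctnna2 and -0.13 to 0.39 for Gpc6 1419688_at. For Rit2 it ranged over -0.58 to 0.06, and Enc1 between the lines with GW8510 over -0.03 to 0.16. The upper ends for Rit2 and Enc1 are means over all probe sets of the gene. They are not values of Rit2 1448125_at or Enc1 1420965_a_at alone. Same-numbered arrays of a line did not deviate together (correlations of -0.134 to 0.0603 over 6 pairs), and with a replicate block 6508 probe sets passed in bTC3 cells and 8159 in aTC1 cells, while Map1b 1421851_at passed in aTC1 cells (adjusted p = 0.0432) and Ehmt2 no longer did in bTC3 cells (0.0569). The call of Dclk1 in aTC1 cells was lost with the mean of its probe sets (adjusted p = 0.144), as were those of Klhl13 (0.0813) and Mark4 (0.0657) in bTC3 cells, and Mras did not pass without bTC3 GW8510 replicate 2 (0.0604). Apart from the tests of fewer rows, the cause was not tested. Dim probe sets near 20, such as Stmn2 1423281_at and Rit2 1421779_at, can hide a change. Whether low signal limits the falls of Ctnnd2, Ctnna2 and Gpc6 1419688_at in aTC1 cells was not tested.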
